A study of Mus musculus with 28 samples.

Results

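The Hox gene clusters of the mouse hold 39 protein-coding genes among the 22271 protein-coding genes of the mm9 annotation (GENCODE M1), and their members were taken by symbol. HoxA has 11 genes, HoxB 10, HoxC 9 and HoxD 9. They were selected on histone mark coverage measured in these same day 3 and day 35 libraries, so the coverage values below describe the members and carry no test.

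The cells were IDG-SW3, 1 immortalised mouse line made from long bone, which passes from an osteoblast-like to an osteocyte-like state in culture. They were expanded at 33 °C with interferon gamma, then moved to 37 °C in osteogenic medium with ascorbic acid and glycerol phosphate and without interferon gamma. Chromatin immunoprecipitation sequencing (ChIP-seq) of 9 histone marks covered day 3 and day 35 of this culture, without hormone and with 1 library per mark and day. VDR, the vitamin D receptor, and RXR, its partner, were mapped at day 35 in cells given vehicle or, for 3 h, the active vitamin D hormone 1,25(OH)2D3 at 100 nM (1,25D3 below). Each of these arms had 2 replicates, which the labels do not describe as separate cultures, so their spread may be technical. Of 28 samples, 26 had a peak list, and the 2 input samples were not used here. The acetylation mark H3K27Ac lay over 100.0% of the windows of the osteoblast genes Sp7 and Col1a1 at both days, and over 64.9% and 84.7% of Runx2, another, at day 3 and day 35. It covered 58.5% of the osteocyte gene Dmp1 at day 3 and 71.8% at day 35. Of other osteocyte genes, Mepe had 40.3% and 58.3%, Phex 11.6% and 12.9%, and Sost 6.6% and 6.3%. Among genes of other cells, Myod1, a muscle gene, had none at either day, and Ptprc had 1.7% and 2.5%. Pecam1, also from other cells, had 13% and 10.7%, above Sost at both days and above Phex at day 3. H3K27Ac therefore did not set every osteocyte gene apart from genes of other cells.

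Hox genes encode homeodomain transcription factors that give cells their place along the head-to-tail axis and along the limbs. They lie in the order of their paralog number, and low numbers act toward the head while high numbers act toward the tail and the far end of the limb. Adult cells of the skeleton keep a Hox pattern set in the embryo, and Polycomb and Trithorax proteins are known to hold silent and active Hox genes in place. The Polycomb mark H3K27me3 was not among the 9 marks. Below, paralogs 1 to 3 are called anterior, 4 to 8 central and 9 to 13 posterior.

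In mm9, HoxA spans chr6:52105366-52210874 (105.5 kb), HoxB chr11:96055630-96229570 (173.9 kb), HoxC chr15:102751534-102867274 (115.7 kb) and HoxD chr2:74506367-74603200 (96.8 kb). Each gene's window was its body extended by 5 kb at both ends. The percentage of the window inside the authors' called regions was taken, and a change of over 10 percentage points from day 3 to day 35 was counted as lower or higher. The windows of 35 of the 39 genes overlap that of another Hox gene, so neighbouring genes share regions, and Hoxa3 has the widest window. A region that is not called does not show that a mark was absent, and the read depth behind the lists is unknown. Called regions covered between 0.49% (H3K4me3 at day 35) and 12.97% (H3K4me1) of the genome. The called length of H3K9me3 was 48.0 Mb at day 3 and 74.8 Mb at day 35. On the autosomes, where the 4 clusters lie, it was 46.1 Mb and 50.9 Mb.

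The clusters fell into a broadly acetylated pair, HoxA and HoxC, and a pair with much less acetylation, HoxB and HoxD. H3K27Ac, found at enhancers and promoters in use, covered 62.5% of the HoxA span at day 3 and 61.8% at day 35. For HoxC the values were 77.3% and 79.4%. HoxB had 0.3% and 0.0%, and HoxD had 6.2% and 13.1%. All 10 HoxB gene windows were without called H3K27Ac at both days. H3K27Ac covered at least 50% of the window in 17 of 39 Hox genes at day 3 and in 15 at day 35, against 11.1% and 16.5% of all protein-coding genes. H4K5Ac, another acetylation mark of open chromatin, covered 74.3% and 75.9% of HoxA and 79.6% and 84.5% of HoxC. It covered 5.0% and 15.4% of HoxD.

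**Figure D1:**
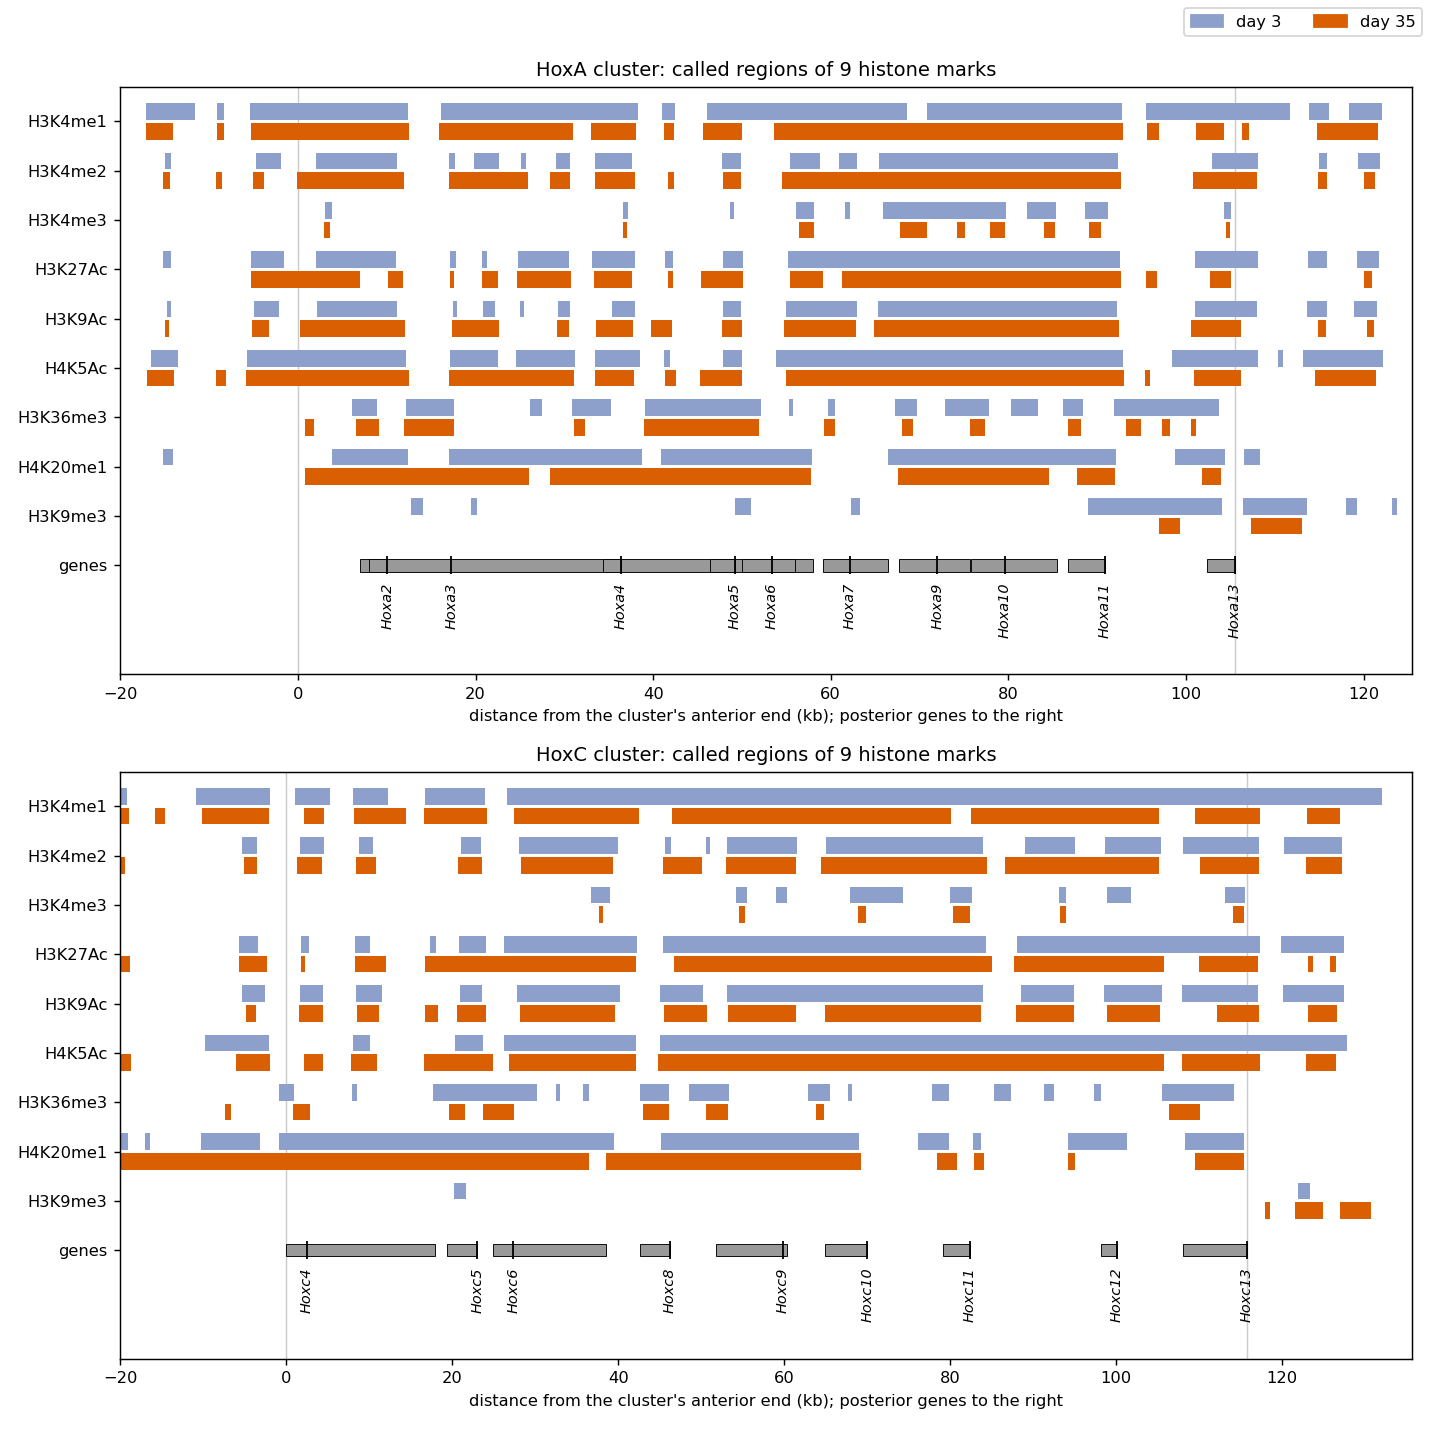
Called regions of the 9 marks along HoxA and HoxC at day 3 and day 35, drawn by distance in kb from the anterior end, with genes as grey boxes (1 HoxA gene not drawn) and a tick at the start site of the transcript with the longest coding sequence. Broad H3K27Ac and H4K5Ac regions span the starts of Hoxa7 to Hoxa11 and of Hoxc9 to Hoxc11 at both days. H3K9Ac and H3K4me2 lie over the same stretches with breaks in places, and H3K4me3 over the same genes is narrower at day 35.

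**Figure D2:**
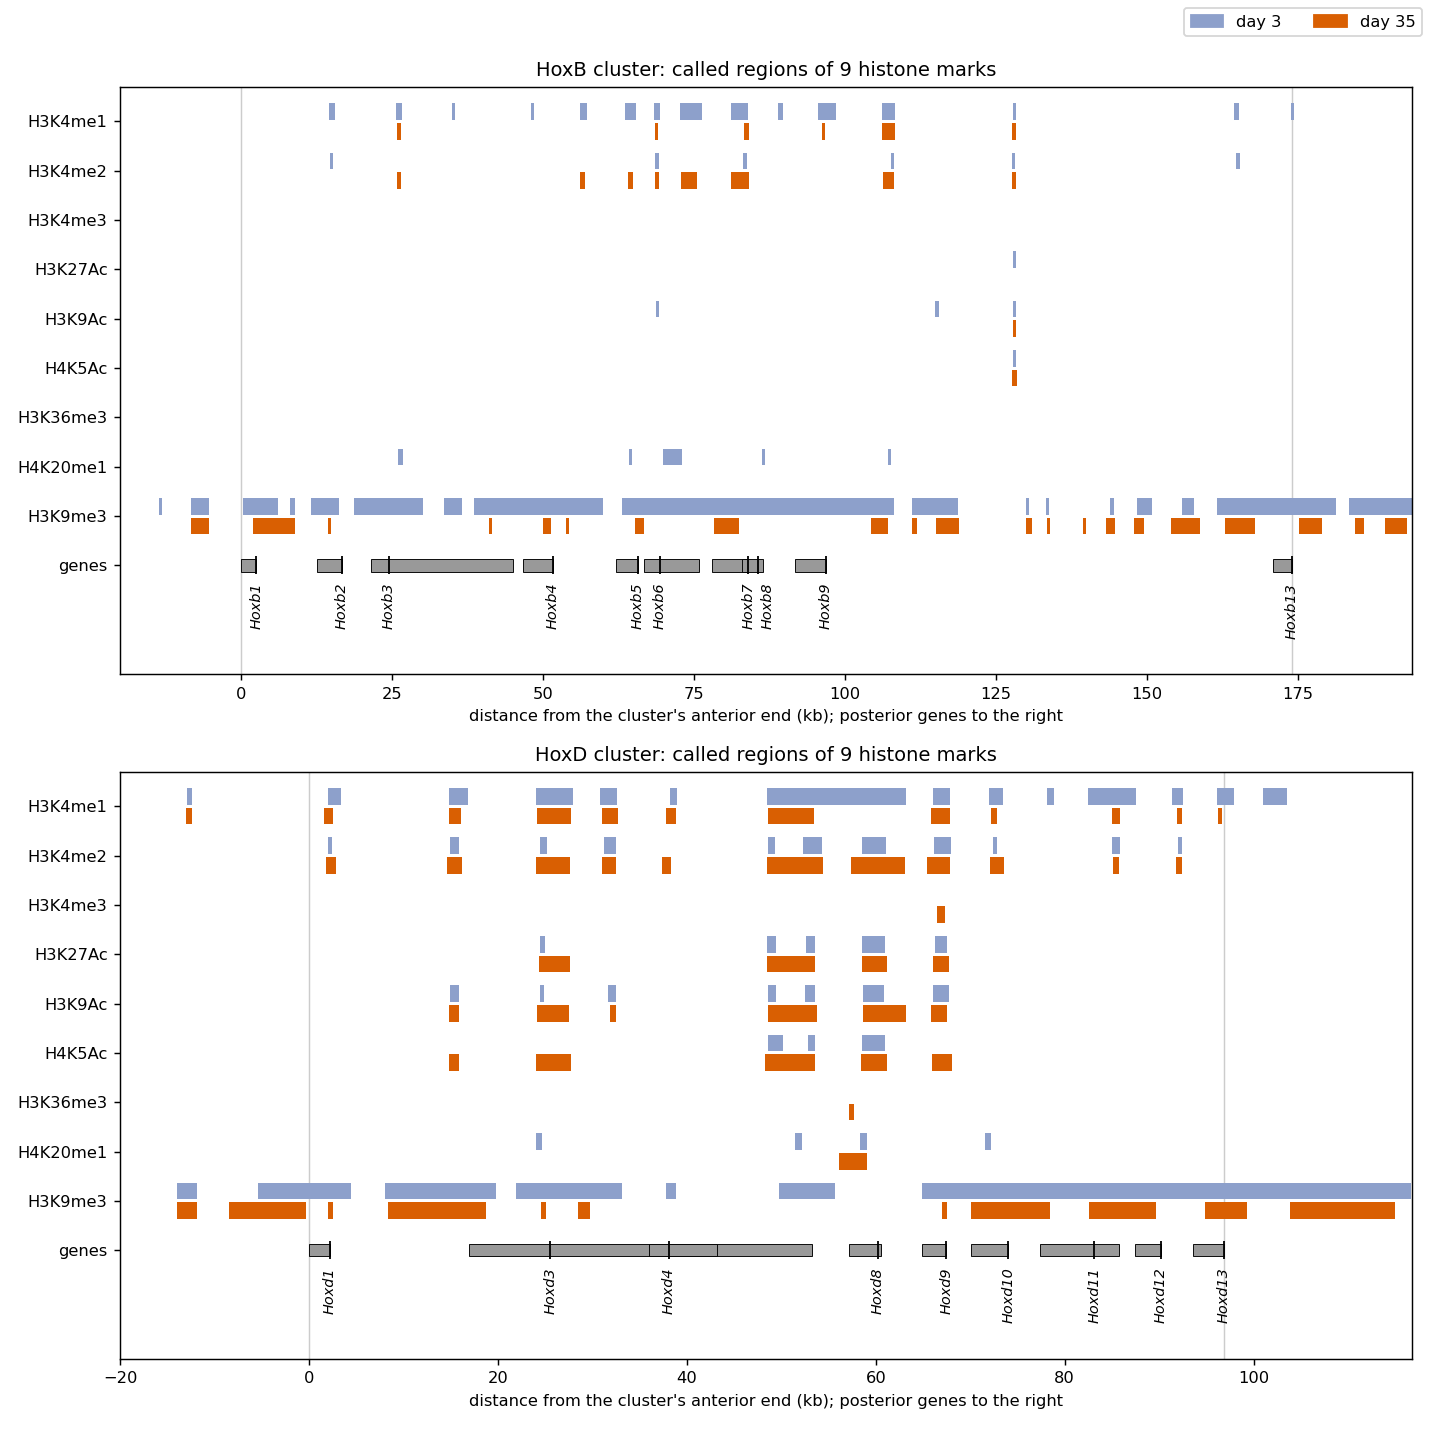
The same plot for HoxB and HoxD. H3K9me3 covers 67.9% of HoxB and 68.6% of HoxD at day 3 and 21.7% and 31.5% at day 35, and acetylation is nearly absent from HoxB and sits in a few HoxD regions near Hoxd3, Hoxd8 and Hoxd9.

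The most intense part of HoxA was the stretch from Hoxa7 to Hoxa11. H3K4me2, a mark of promoters and enhancers, formed a region there of 26.9 kb at day 3 and 38.2 kb at day 35. By the authors' score these ranked 3rd of 45596 and 2nd of 66645 regions of their lists. H3K9Ac, found at active promoters, was called over Hoxa9 to Hoxa11 as a region of 26.9 kb at day 3, 4th of 51466 by score, and of 27.6 kb at day 35, 5th of 56355. HoxC held a 30.9 kb H3K9Ac region over Hoxc9 to Hoxc11 at day 3, 5th by score, and one of 18.8 kb over Hoxc10 and Hoxc11 at day 35, 14th by score. Ranks in lists of different length show no change, and these give only where the regions stood within each list. H3K4me1, a mark of enhancers, spanned 7 start sites of HoxC at day 3 in a region of 105.4 kb, the 8th widest of 91299.

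Changes of acetylation were mixed in direction. H3K27Ac was lower by over 10 points in 5 Hox genes and higher in 6, against 5.82% lower and 17.8% higher of all genes. H3K9Ac was lower in 4 and higher in 6, against 3.65% and 7.08%. H4K5Ac was lower in 2 and higher in 6, against 6.66% and 13.4%. The median change over the 39 genes was 0.0 points for each of these 3 marks, as over all genes.

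Of the 6 genes with higher H3K27Ac, 4 were central: Hoxa5, Hoxc4, Hoxc5 and Hoxc6. Hoxc4 to Hoxc6 are neighbours that 1 H3K27Ac region of 25.5 kb touched at day 35, so they are not separate cases. Central genes were also among those with lower H3K27Ac (Hoxa7 and Hoxc8). Hoxc5 went from 42.6% to 83.4% for H3K27Ac, with 38.4% to 69.2% for H4K5Ac and 20.6% to 37.1% for H3K9Ac. Hoxc4 went from 26% to 47.3% for H3K27Ac and from 27.1% to 52.9% for H4K5Ac. For H3K27Ac, Hoxc6 had 81.3% and 93.8%, and Hoxa5 24.5% and 41.8%. Hoxa5 is a regulator of lung and cervical skeleton patterning, and Hoxc5 and Hoxc4 belong to the central group at the anterior end of their cluster. H3K27Ac of Hoxd3 was 5.32% at day 3 and 18.0% at day 35. All 3 acetylation marks were higher, with H3K27Ac by over 10 points, in 4 Hox genes, namely Hoxa5, Hoxc4, Hoxc5 and Hoxd3, against 11.5% of all genes.

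The 5 genes with lower H3K27Ac were Hoxa2, Hoxa7, Hoxa13, Hoxc8 and Hoxc13. Hoxa13, which patterns the hand and foot, went from 53.5% to 17.8% for H3K27Ac and from 74.6% to 40.1% for H4K5Ac. Hoxc13, known for its part in hair and nail, went from 85.5% to 56.1% for H3K27Ac, from 69.1% to 41.1% for H3K9Ac and from 100.0% to 68.8% for H4K5Ac. Hoxa2 went from 69.5% to 51.4% for H3K27Ac, while its H3K9Ac was 69.1% and 77.4%. Hoxa7 went from 94.1% to 80.0% and Hoxc8 from 76.8% to 65.9% for H3K27Ac. All 3 marks were lower in 2 Hox genes, Hoxa13 and Hoxc13, against 4.11% of all genes. For H3K9Ac the other large decreases were at Hoxc10 (100.0% to 76.5%) and Hoxc9 (84.6% to 67.2%), and the large increases at Hoxa4 (31.8% to 57.7%), Hoxd8 (25.0% to 45.9%) and Hoxd9 (21.9% to 39.6%).

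Within HoxD, H3K27Ac was limited to 4 of the 9 gene windows at both days: Hoxd3, Hoxd8, Hoxd9 and Hoxd10. In the Hoxd10 window it reached only the 5 kb flank, where the region at Hoxd9 lies. Hoxd8 had 25.1% and 30.3%, Hoxd9 17.6% and 23.7% and Hoxd10 8.69% and 12.2%. H4K5Ac in Hoxd9 was 8.42% and 27.1%, and in Hoxd3 5.12% and 21.6%. Hoxd1, Hoxd4, Hoxd11, Hoxd12 and Hoxd13 had no called H3K27Ac. In HoxC, Hoxc9 to Hoxc12 had between 76.9% and 100.0% at both days, and in HoxA Hoxa9 and Hoxa10 had 100.0% at both. Hoxa11 had 77.0% and 79.6%, Hoxa6 50.8% and 53.1%, Hoxa3 51.4% and 48.3% and Hoxa4 50.3% and 46.5%.

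H3K4me3, the mark of active promoters, was confined to HoxA and HoxC at day 3 among the 4 spans, with 23.9% and 17.3%, and was lower there at day 35, with 11% and 5.4%. It was lower by over 10 points in 6 Hox genes and higher in none, against 2.15% lower and 0.157% higher of all genes. Hoxa9 went from 77.0% to 31.4%, Hoxa10 from 71.6% to 26.8% and Hoxc10 from 44.7% to 6.79%. Hoxa9 and Hoxa10 act in limb and axial patterning, and Hoxa11 in the forearm. The day 3 region over Hoxa9 and Hoxa10 was 13.9 kb wide, 3rd widest of 11283. At day 35 the highest-scoring H3K4me3 region in HoxA was 3.1 kb wide and touched Hoxa9. In HoxD no H3K4me3 was called at day 3 and 1 region of 0.8 kb at day 35, in Hoxd9.

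At the start site itself, H3K4me3 was called over 8 of 39 Hox genes at day 3 and over 2 at day 35, against 37.9% and 27.7% of all protein-coding genes. Hoxa10 and Hoxc11 carried it at both days. Hoxa7, Hoxa9, Hoxa11, Hoxc9, Hoxc10 and Hoxc12 carried it at day 3 only, and no Hox gene carried it at day 35 only. Only the single start base was read, so a narrower region beside it did not count. At day 35 a region still lay beside the Hoxc10 start, at 68.90 to 69.92 kb from the anterior end against 70.05 kb. Another lay at 89.04 to 90.43 kb, near the Hoxa11 start at 90.85 kb. Each of the 8 start sites called at day 3 belongs to paralogs 7 to 12. That range depends on the single base, since day 3 regions also ended close beside other starts. In kb from the anterior end, a HoxA region ended at 49.12, beside the Hoxa5 start at 49.22. A HoxC region ended at 115.58, beside the Hoxc13 start at 115.74. H3K27Ac lay over 21 start sites at day 3 and 18 at day 35, with 17 at both, against 53.4% and 51.9% of all genes. The start sites with H3K27Ac at day 3 only were those of Hoxa2, Hoxa13, Hoxc4 and Hoxc8, and Hoxd3 had it at day 35 only.

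H3K4me2 went the other way from H3K4me3. It was higher by over 10 points in 15 Hox genes and lower in 1, against 9.17% and 0.557% of all genes. Hoxa7 had 66.4% and 97.7%, Hoxb7 4.23% and 34.3%, and Hoxc12 69.9% and 100.0%. The single lower gene was Hoxc13, with 67.3% and 52.5%. Hoxb7 lies in a cluster without called H3K27Ac at its gene windows, and its start site was within H3K4me2 at day 35 only. Across HoxD the H3K4me2 span coverage was 12.7% at day 3 and 26.5% at day 35. The called length over the genome was also greater at day 35 for H3K4me2, 130.2 Mb against 87.6 Mb, and smaller for H3K4me3, 13 Mb against 17.6 Mb, and the part of this in the Hox values was not tested.

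H3K4me1 was lower in 19 Hox genes and higher in 2, against 9.93% and 8.04% of all genes. The largest decreases were at Hoxd8 (82.5% to 9.7%), Hoxa13 (100.0% to 29.1%) and Hoxc13 (100.0% to 56.4%). Hoxa7 and Hoxa9 were higher, at 87.1% and 87.5% on day 3 and 100.0% on day 35 each. All 5 posterior HoxD genes were lower, with Hoxd10 just past the threshold at 29.0% and 19.0%. The called length over the genome was 344.2 Mb for H3K4me1 at both days.

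**Figure D3:**
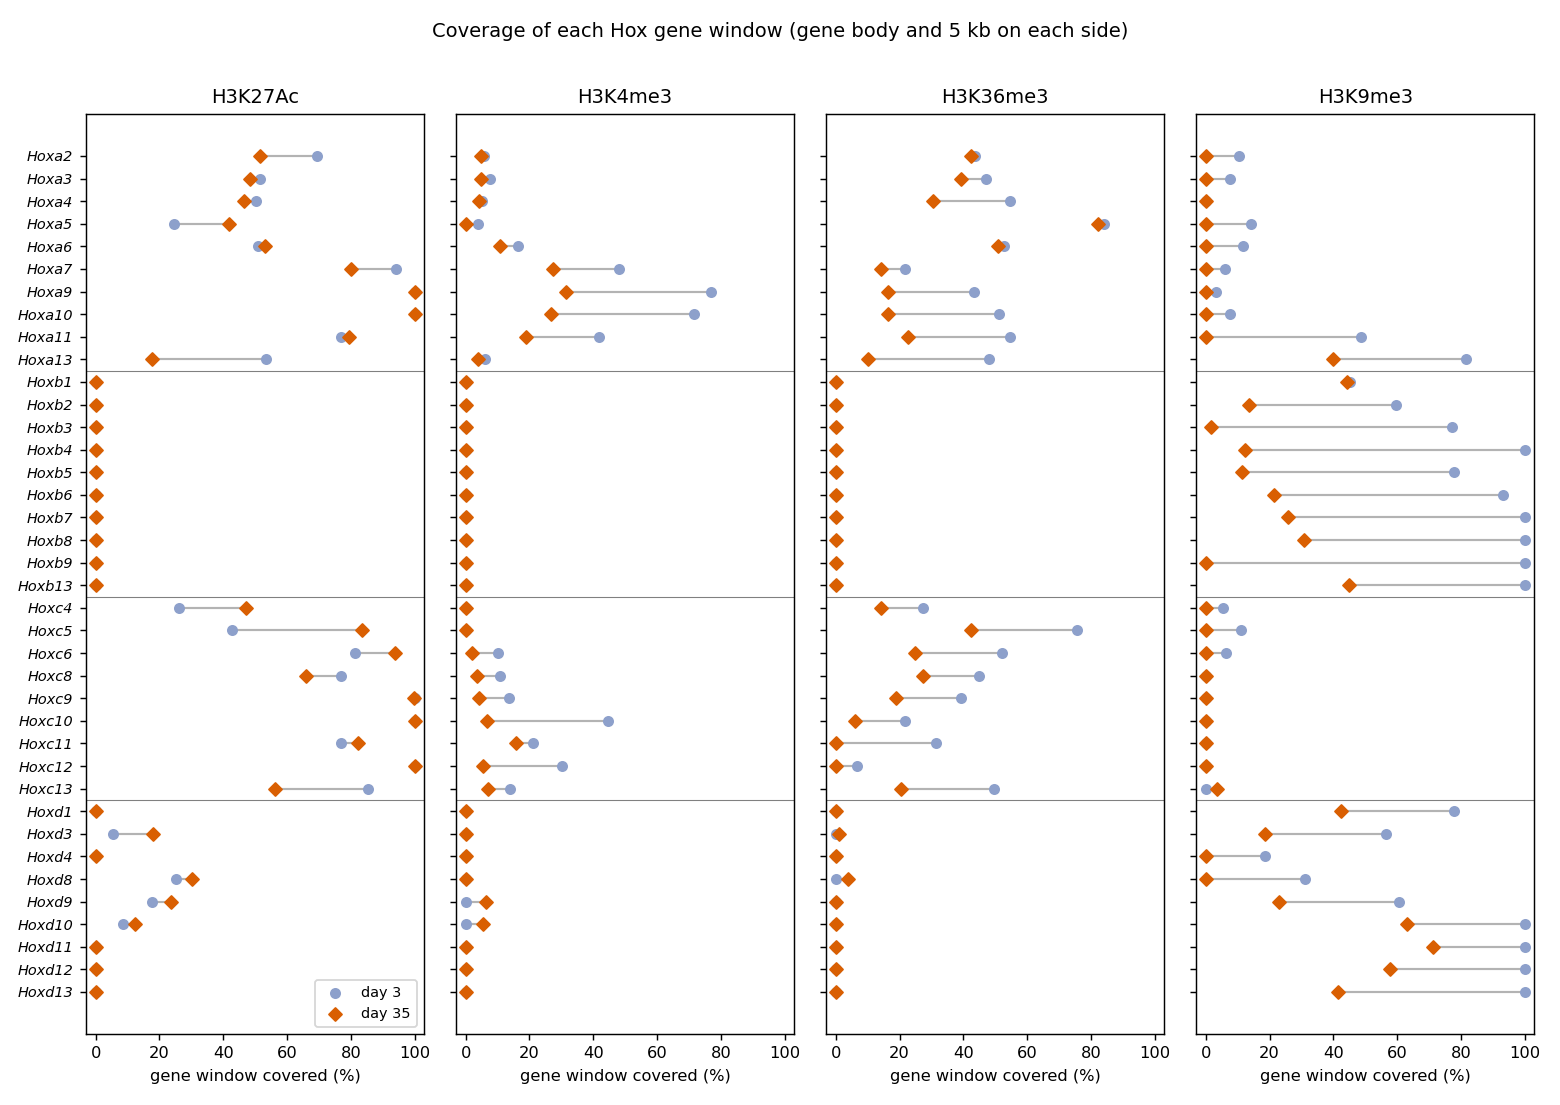
Share of the gene windows of 38 Hox genes covered by H3K27Ac, H3K4me3, H3K36me3 and H3K9me3, with day 3 as circles and day 35 as diamonds, where a lone diamond covers a circle at the same value. HoxB windows are at 0 for the 3 active marks, and H3K9me3 is over 10 points lower at day 35 in 9 of 10 HoxB and 9 of 9 HoxD genes.

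H3K36me3, which marks transcribed gene bodies, covered 49.9% of HoxA and 35.8% of HoxC at day 3, and 30.4% and 15.6% at day 35. It was called at no HoxB gene, and over 0.5% of HoxD at day 35 only. It was lower by over 10 points in 13 Hox genes and higher in none, against 9.86% lower and 10.7% higher of all genes. In HoxA all 4 posterior genes were lower: Hoxa13 had 48.2% and 10.0%, Hoxa10 51.2% and 16.4%, Hoxa11 54.7% and 22.7% and Hoxa9 43.3% and 16.4%. In HoxC it was lower in 8 of 9 genes, with Hoxc5 at 75.5% and 42.3%. Hoxa5 kept the highest coverage in HoxA, with 84.0% and 82.3%.

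H4K20me1, found over transcribed genes and also in compact chromatin, covered 74.3% of HoxA at day 3 and 74.1% at day 35. For HoxC these values were 71.0% and 67.0%. It was lower in 5 Hox genes and higher in 5, against 6.14% and 17.9% of all genes. The lower genes were led by Hoxc12 (59.2% to 6.45%), Hoxa13 (55.9% to 16.6%) and Hoxa11 (73.2% to 50.7%), all posterior, and Hoxa10 and Hoxb6 were also lower. The largest increases were at Hoxa2 (65.3% to 100.0%) and Hoxc8 (58.5% to 93.0%). In HoxA, the 3 lower genes were posterior and the 3 higher ones anterior or central.

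H3K9me3, a mark of silent chromatin, was widest in the 2 clusters with less acetylation. At day 3 it covered 67.9% of HoxB, 68.6% of HoxD, 18.9% of HoxA and 1.3% of HoxC. At day 35 it covered 21.7%, 31.5%, 2.2% and 0.0%. It was lower by over 10 points in 24 Hox genes and higher in none, against 4.17% lower and 4.2% higher of all genes. It covered at least 50% of the window in 17 Hox genes at day 3 and in 3 at day 35, against 1.11% and 0.862% of all genes. Across the 39 genes the Spearman coefficient between H3K9me3 and H3K27Ac coverage was -0.83 at day 3 and -0.73 at day 35, a description over genes that share windows. It does not show that H3K9me3 lay apart from active marks base by base. At day 3, 8.5 of the 19.9 kb of H3K9me3 in HoxA were also in H3K27Ac, against 2.7 kb in HoxD and none in HoxB. H3K9me3 shared 15.9 kb with H3K4me1 in HoxA, 20.1 kb in HoxB and 26.6 kb in HoxD at day 3. At day 35 it shared none in HoxA, 0.9 kb in HoxB and 4.8 kb in HoxD.

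Within HoxB, Hoxb9 went from 100.0% to 0.0%, Hoxb4 from 100.0% to 12.2% and Hoxb3 from 77.3% to 1.5%. Hoxb1 was the exception, with 45.3% and 44.3%. A region of 45.0 kb ran from Hoxb5 to Hoxb9 at day 3, the 6th widest of 33157. Within HoxD, a region of 51.8 kb covered the starts of Hoxd9 to Hoxd13 at day 3 and was 4th of its list by both score and width. At day 35, Hoxd10, Hoxd11 and Hoxd12 still had 63.0%, 71.3% and 57.8%, and Hoxd4 and Hoxd8 had none. Hoxd10 to Hoxd13 are the genes of the far limb. Hox start sites within H3K9me3 numbered 18 at day 3 and 7 at day 35, against 5.06% and 2.61% of all genes.

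In HoxA, most of the day 3 H3K9me3 lay at its posterior end, with Hoxa13 at 81.7% and Hoxa11 at 48.6%. Of the 19.9 kb of H3K9me3 in HoxA, 15.0 kb (75.2%) were also called for H3K36me3 at day 3. H3K9me3 spanned 118.0 kb of HoxB and 66.5 kb of HoxD at day 3. An overlap with H3K36me3 could not be read there, since none was called in HoxB at either day or in HoxD at day 3. The 0.5 kb of H3K36me3 in HoxD at day 35 lay outside H3K9me3. Over the autosomes 23.14% of H3K9me3 was also in H3K36me3 at day 3 and 3.62% at day 35. The part of either H3K9me3 library in the difference between the days was not tested, since each day has 1 library.

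**Figure D4:**
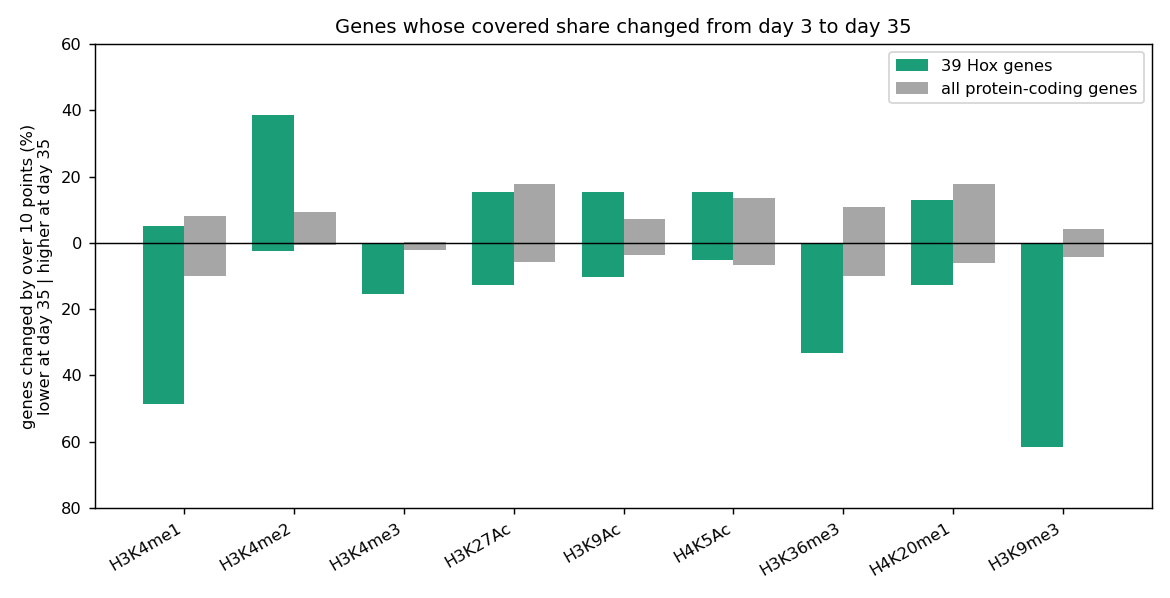
Percentage of the 39 Hox genes and of all 22271 protein-coding genes whose window coverage was over 10 points higher (bars upward) or lower (bars downward) at day 35, for each mark. The Hox bar is the longer one for lower coverage of each mark except H4K5Ac, and for higher coverage of H3K4me2, H3K9Ac and H4K5Ac only.

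The clusters also hold microRNA genes, and their mature sequences (RefSeq, GRCm38.p6) are shown since members of one seed family sat in different chromatin. The seed, bases 2 to 8, is in capitals, and all 4 mature forms matched by name.
miR-10a-5p: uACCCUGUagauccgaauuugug
miR-10b-5p: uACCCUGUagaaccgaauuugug
miR-196a-5p: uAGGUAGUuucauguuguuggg
miR-196b-5p: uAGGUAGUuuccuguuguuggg
The miR-10 pair shares one seed and the miR-196 pair another. Mir196b, within Hoxa9, lay within H3K4me2, H3K4me3 and all 3 acetylation marks at both days. Mir196a-2, between Hoxc9 and Hoxc10, lay within H3K4me1, H3K27Ac and H4K5Ac at both days. Mir196a-1 in HoxB, which yields the same miR-196a, and Mir10a within Hoxb4 were in H3K9me3 and in no other mark, Mir10a at both days and Mir196a-1 at day 3 only. Mir10b, within Hoxd4 and the longer Hoxd3 record that spans it, was in none of the 9 marks at either day.

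Genes that work with or beside the Hox genes were read by the same measure, counting those with all 3 acetylation marks changed one way and H3K27Ac by over 10 points. The shares over all genes were 11.5% higher and 4.11% lower. Of 11 neighbours of the clusters, Calcoco1 was higher and Hibadh lower. Of 16 Polycomb genes, 3 were higher, among them Rnf2 and Phc2, and 4 lower (Ezh1, Ezh2, Cbx2 and Cbx8). Ezh2, the main H3K27 methyltransferase, went from 33.3% to 20.4% for H3K27Ac, and Rnf2, a ubiquitin ligase of the complex, went from 12.6% to 39.1%. Of 10 Trithorax and H3K27 demethylase genes, Kmt2b and Ash2l were higher and none was lower. The median H3K27Ac change was 15.8 points for these 10 genes, -3.2 for the Polycomb genes and -1.5 for the neighbours, against 0.0 for all genes. These medians are for H3K27Ac alone, and the other 2 acetylation marks did not always follow it. Kmt2d went from 29.6% to 66.8% for H3K27Ac, but from 27.1% to 24.3% for H3K9Ac and from 27.6% to 25.6% for H4K5Ac. The counts of higher genes in these short lists lie near the share over all genes. The count of lower Polycomb genes, 4 of 16, lies above the 4.11% of all genes and was not tested. Cbx2 and Cbx8 are neighbours whose windows overlap, so they are not separate cases.

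VDR had 1 peak in the Hox windows, taken as each cluster with 100 kb on each side. The number expected in windows of this size was not worked out, so the counts do not show that VDR avoids them. The vehicle lists held 0 and 0 peaks there, of 291 and 342. The 1,25D3 lists held 1 (of 1618) and 0 (of 1333). That peak lay in the HoxB flank, 61.96 kb from the Hoxb1 start, with a score of 6.0 and rank 1507. No Hox window held a VDR site called in both replicates. The log2 ratio of peak numbers plus 1 was 0.50, with p = 1 in a two-sided exact permutation test, and 2 libraries against 2 allow no p below 0.333.

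Of the RXR peaks in the Hox windows, most lay in that of HoxA. The number expected per window was not worked out here either, so this shows no preference for HoxA. The vehicle lists held 9 and 5 peaks in the 4 windows, and the 1,25D3 lists 11 and 9, so the groups touch at 9. The log2 ratio of 1,25D3 to vehicle was 0.50, with p = 0.667 in a two-sided exact permutation test, and the smallest possible p is again 0.333. The lists hold 6875 and 4093 peaks for vehicle and 10333 and 7635 for 1,25D3. With all 4 limited to the 4093 highest scores, the ratio was -0.18, the opposite direction. HoxA held 7 and 4 peaks in vehicle and 7 and 7 in 1,25D3, HoxD held 0 in all 4 lists, and the others held at most 2 per list.

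The peaks made 12 RXR sites. Of these, 9 were called in both 1,25D3 replicates, and 6 of the 9 lay inside HoxA. Of the 9, 4 (44.4%) were also in both vehicle lists, where 50.7% of all 6783 such RXR sites were. These 4 lay inside HoxA, among them sites at Hoxa5, at Hoxa7 and at Hoxa10. The other 5 were missing only from vehicle replicate 2, the shortest list. The nearest Hox genes of the 9 sites included Hoxa3, Hoxa4, Hoxa5, Hoxa7 and Hoxa10 in HoxA, Hoxb1 for HoxB and Hoxc4 for HoxC.

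**Figure D5:**
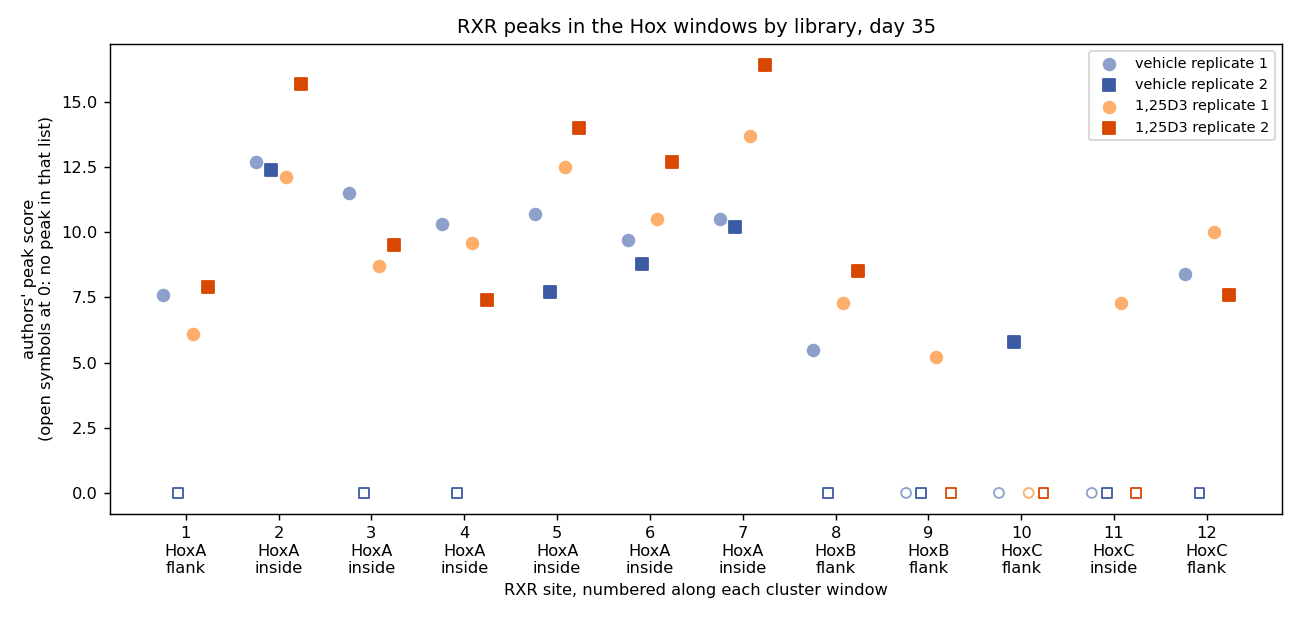
Authors' scores of the 12 RXR sites in the Hox windows in each of the 4 day 35 lists, with open symbols at 0 where a list has no peak. Sites 2, 5, 6 and 7, inside HoxA, carry a peak in all 4 lists, and sites 9, 10 and 11 in 1 list each.

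The site with the highest scores under hormone was at Hoxa10, 0.01 kb upstream of the start of one of its transcripts and in an intron of the gene. Its scores were 10.5 and 10.2 in vehicle and 13.7 and 16.4 in 1,25D3, and scores of different lists are given side by side only. At the Hoxa5 start, 0.02 kb into the gene, the scores in the same order were 10.7, 7.7, 12.5 and 14.0, and beside a start of Hoxa7, 4.38 kb from its main start, they were 9.7, 8.8, 10.5 and 12.7. All 6 sites within HoxA lay in H3K4me1 and H4K5Ac at both days. The Hoxa10 site was also in H3K4me3 at both days, and the Hoxa7 site in H3K4me3 at day 3 only. Of the 2 sites in an intron of Hoxa3, the one 2.79 kb from its start was in H3K9me3 at day 3 and not at day 35, and the other was outside H3K9me3 at both days.

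The 200 bases around the centre of the Hoxa10 site follow (mm9, forward strand), shown since it was called in all 4 RXR lists. The windows were searched for direct repeats of a nuclear receptor half-site, with 1 to 5 bases between the copies and at most 1 mismatch in all, on either strand. The half-sites searched were AGGTCA, then GGGTCA in the same way, then also AGTTCA, and as the last form GGTTCA.
Hoxa10 site, chr6:52183617-52183816: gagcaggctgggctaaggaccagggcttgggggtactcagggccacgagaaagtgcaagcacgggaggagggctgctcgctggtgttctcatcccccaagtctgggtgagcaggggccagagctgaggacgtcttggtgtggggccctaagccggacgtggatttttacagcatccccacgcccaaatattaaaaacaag
The Hoxa10 site held no such repeat in this window. Near Hoxa7 the repeat was AGTTCAcgcGGGCCA, read on the reverse strand, with 1 mismatch and the half-sites in capitals. Of the 9 sites in both 1,25D3 lists, 3 (33.3%) held a repeat, against 26.4% of all 6783 RXR sites in windows of the same length. The VDR peak of HoxB overlapped an RXR peak of the same replicate and held GGGTCActaGGGGCA, with 3 bases between the copies and 1 mismatch. A match of letters does not show binding to it.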

How the data were processed

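The authors deposited peak lists of called regions, 1 per sample, with the authors' score per region, whose scaling is not stated. Per the submitters' processing notes, Bowtie and HOMER were used on mm9, with versions and settings not given in the sources used here. The members and the other gene lists were chosen with earlier results of these data known. Regions were merged per list (Python 3.11.15, NumPy 2.4.6, pysam 0.24.0) and intersected with gene windows from GENCODE M1. The coverage code was tested on simulated regions. Hox genes with 2 overlapping records (Hoxa3) were joined. Sites are peaks that overlap by at least 1 base. Named in full were the 3 largest changes over 10 points per mark and direction, genes nearest RXR sites of both replicates and genes with H3K4me3 at 1 day. Genes of other lists were named where all 3 acetylation marks changed alike. Replicates shared no identical coordinates, and 52.8% to 97.3% of replicate 1 peaks overlapped replicate 2. Replicate 2 factor lists and all histone lists carry a tag in their names that replicate 1 factor lists lack. Alternatives were other windows, stricter scores, merging, a 20 point threshold, equal list lengths and leaving out replicates. Results for 1 Hox gene and for some other items are not reported here.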

Additional observations from a re-analysis of the deposited data

How the results depend on the processing

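Of 45 alternatives for the coverage counts, each followed in the direction with more genes, 37 stayed within 1.5 times the main count and none turned the direction. H4K20me1 was followed as lower, although its main count was tied at 5 and 5. Within 2 kb of the start site, H4K5Ac was higher in 5 genes and lower in 5. Ties were also found for H3K27Ac with the gene body alone, 5 and 5, and for H3K9Ac with a threshold of 20 points, 2 and 2. H4K20me1 was also tied with the higher-scoring 50% of each list and with merged regions, 5 and 5 each, and with a threshold of 20 points, 3 and 3. With the gene body alone and within 2 kb of the start site, H3K36me3 was higher in 2 genes and H3K4me3 in 1, where the main counts were 0. With a threshold of 20 points the higher genes were 6 for H3K4me2, 3 for H3K27Ac, 2 for H3K9Ac and 3 for H4K5Ac, and the lower genes 3 for H4K20me1. With the gene body alone, the lower genes were 10 for H3K4me3 and 8 for H4K20me1. Within 2 kb of the start site, the lower genes were 7 for H3K36me3. The VDR log2 ratio was 0.00 for the clusters alone, with 50 kb on each side, with the higher-scoring 50% of each list and with equal list lengths. It ranged from 0.00 to 1.00 when replicate 1 or replicate 2 was left out. The RXR ratio ranged from 0.26 to 0.74 in the same way and was -0.18 with lists of equal length, with 8 and 5 peaks in vehicle and 6 and 5 in 1,25D3. With the replicate block, the ratio was 0.50 for both factors, with exact sign-flip p = 1 for VDR and p = 0.5 for RXR, the smallest that 2 pairs allow. The numbers share no stated litter or day, so this pairing is by number only. With 1 library per mark and day, no histone difference has a replicate check.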

Other observations

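The flanks of the clusters, taken as 100 kb on each side, differed from the clusters for some marks. On the posterior side of HoxD, beyond Hoxd13, H3K9me3 covered 28.9% at day 3 and 50.2% at day 35, while inside HoxD it was lower at day 35. On the posterior side of HoxA it was 44.0% and 16.0%. H4K20me1 on the anterior side of HoxC, beyond Hoxc4, covered 24.1% at day 3 and 77.0% at day 35, and a region of 100.4 kb ran from Hoxc6 past the cluster at day 35. H3K27Ac on the posterior side was 11.7% and 2.6% for HoxA, and 31.0% and 15.2% for HoxC. H4K5Ac there was 34.9% and 15.5% for HoxA and 43.5% and 27.5% for HoxC.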
